A study of Mus musculus with 20 samples.

Results

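Untreated C2C12 myotubes were represented by 4 of the 20 arrays of the series, those whose titles give an H2O2 dose of 0 µM, and these 4 arrays are described here gene by gene. C2C12 cells are an established mouse line of myoblasts, the dividing precursors of skeletal muscle. The study exposed C2C12 myotubes to hydrogen peroxide at several doses, and the untreated arrays served it as the control. In the untreated group, myoblasts grown with 10% fetal calf serum had been moved to 2% heat-inactivated horse serum for 96 h, and then kept for 2 h in medium with 0.5% horse serum and no peroxide. Every array of the series shares this cell line, the serum switch and the 2 h in low serum. The model is a single line in culture. Total RNA was taken with TRIzol, and no step that removes unfused cells is described. The replicates are called independent, without saying whether each had its own culture, so part of the spread given here may be technical.

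When serum is withdrawn, myoblasts leave the cell cycle, switch on the myogenic regulators myogenin and MEF2, fuse into multinucleated fibres, and build sarcomeres of myosin, actin, troponin and tropomyosin. Muscle makes embryonic, neonatal, fast, slow and cardiac forms of most of these proteins from separate genes, and cultured myotubes are known to mix them. A fraction of myoblasts in such cultures stays unfused, keeping a progenitor state or continuing to divide.

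The arrays were Affymetrix Mouse Genome 430A chips, on which each gene is read by one or more sets of short probes. Values are the linear signal intensities that the authors deposited, scaled by them to a common trimmed mean. The chip named 12393 genes, and a gene is given by its brightest probe set. Signals of different probe sets order genes by brightness only, not by number of RNA molecules, because probe sets differ in how strongly they bind. A gene is called detected when it lay, on all 4 arrays, above the 95th percentile of 93 measured genes that belong to other tissues (liver, pancreas, brain, blood, eye, testis and others). That level was a signal of 173, 130, 149 and 159 in replicates 1 to 4. By this rule 6456 genes were detected, 52.1% of all measured; 4991 genes, 40.3%, were above the level on no array; and 946 were above it on 1 to 3 arrays. Of the reference genes themselves, 3 were detected, namely Ctrb1, Syn1 and F2. The brightest decile, by mean log2 signal, held 1240 genes, 10% by construction. The counts of each gene group below are set against these shares over all genes.

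Replicate 1 stood apart from the other 3 arrays. Over the 6456 detected genes, its log2 signals correlated with those of replicates 2 to 4 at r = 0.957 to 0.960, while replicates 2, 3 and 4 correlated with each other at 0.991 to 0.993. No pair of arrays held identical values. The median SD of a detected gene over the 4 arrays was 0.15 on the log2 scale, and 0.31 at the 90th percentile of these SDs. The 10 detected genes of largest SD were Csdc2, Igfbp2, Plet1, Snrnp27, Rflnb, Col1a1, Fosl1, Olfml3, Rab43 and Yipf7. In each of the 10, replicate 1 was the array away from the rest. It was higher than the others for Csdc2, Plet1, Fosl1, Rab43 and Yipf7, and lower for Igfbp2, Snrnp27, Rflnb, Col1a1 and Olfml3. The spread was widest in Csdc2, with signals of 1213, 387, 383 and 292 in replicates 1 to 4. Ratios of the 3′ to the 5′ control probe sets, a measure of RNA integrity, were 0.78 to 0.81 for Gapdh. For actin the ratio was 0.925 in replicate 1 and 1.07 to 1.14 in the others. The median signal of the reference genes of other tissues was 37.3 in replicate 1 and 16.3 to 21.2 in the others. The part of these measures in the distance of replicate 1 was not tested.

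**Figure D1:**
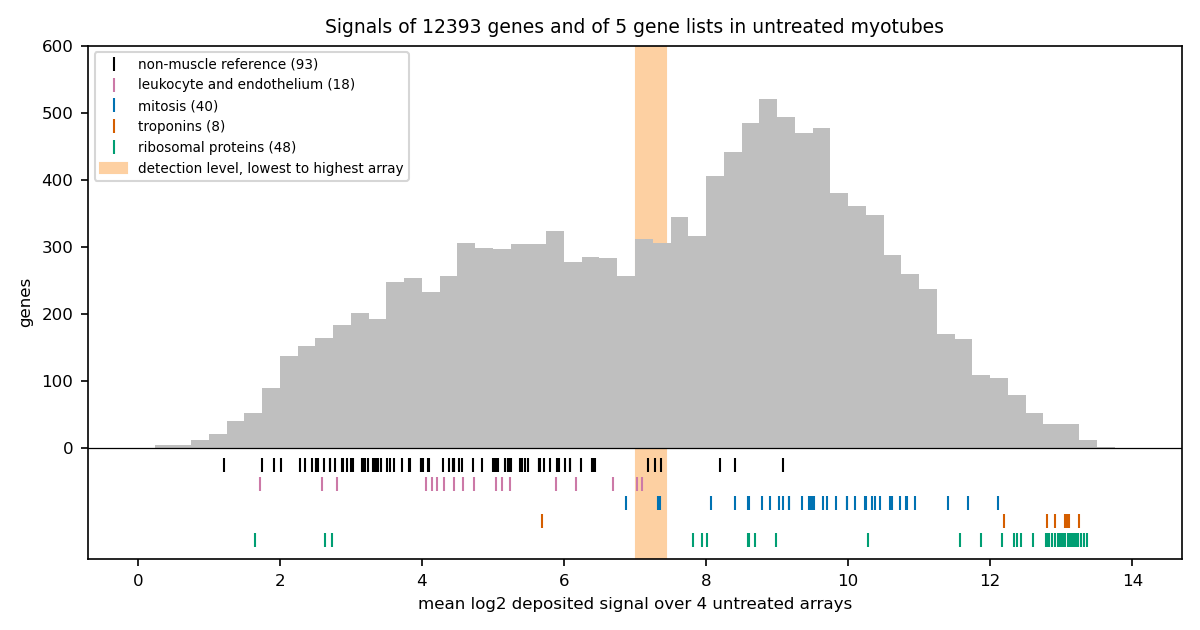
Histogram of the mean log2 deposited signal over the 4 untreated arrays for 12393 genes (x axis, log2 signal; y axis, number of genes). Ticks under it mark the members of 5 gene lists, and the shaded band spans the detection level of the 4 arrays, 130 to 173 in signal. Troponins and ribosomal proteins lie mostly far above it, 37 of 40 mitosis genes above it, and leukocyte and endothelial genes mostly below it. The other-tissue reference genes lie mostly below it by construction, because they set the level.

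The myotube name in the titles was set beside 4 markers of differentiated muscle, and all 4 were detected and in the brightest decile. Each was above the level on all 20 arrays of the series, so they do not mark the untreated dose. Myog encodes myogenin, the regulator that commits myoblasts to differentiation. It gave signals of 6446, 6633, 6616 and 6480.5 in replicates 1 to 4, 6544 ± 94.2 (SD, n = 4). Ckm, the muscle creatine kinase that regenerates ATP, gave 6474, 5274, 4952 and 4596, 5324 ± 815 (SD, n = 4). Acta1, skeletal alpha-actin of the thin filament, gave 8433, 10569.9, 10765 and 9463, and Tnnc1, the slow and cardiac troponin C that binds calcium, gave 7606, 11079, 11244 and 9573. Myogenin was even across the arrays, Ckm was highest in replicate 1, and Acta1 and Tnnc1 were lowest in it.

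The brightest transcripts were those of the translation machinery, the cytoskeleton and the sarcomere. The 5 highest by mean log2 signal were Lgals1 (galectin-1, a lectin abundant in muscle precursors and fibroblasts), Tmsb10 (thymosin beta 10, which holds actin monomers), Eef1a1 (the elongation factor of translation), Tpt1 and Vim (vimentin, an intermediate filament of mesenchymal cells and myoblasts). Lgals1 gave 9389.5, 14524, 14722 and 12529.9 in replicates 1 to 4 and Vim gave 8399, 11756, 12633 and 11379, lowest in replicate 1 in both cases. Ribosomal proteins filled 12 of the 30 brightest places and 30 of the 100 brightest. Of 48 measured, 44 were detected, 91.7% against 52.1% of all genes. With the median of a gene's probe sets in place of its brightest, 24 of the 100 brightest were ribosomal proteins, and 23 without probe sets whose suffix marks shared sequence. Ribosomal protein genes have many processed copies in the genome, so signals of single members, such as Rps18 at 10548 ± 803 (SD, n = 4), are uncertain. Tmsb10 was detected only through probe sets with that suffix, and Tuba1a and Actg1 each had 1 probe set, which carries it as well. The sarcomere genes among the 30 brightest were Mylpf, Myl4, Acta1, Tnnc1 and Myl1. Beside them stood the cytoplasmic actins Actb and Actg1, the tubulin Tuba1a, the desaturase Scd2 and the matrix genes Fn1 and Sparc.

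**Figure D2:**
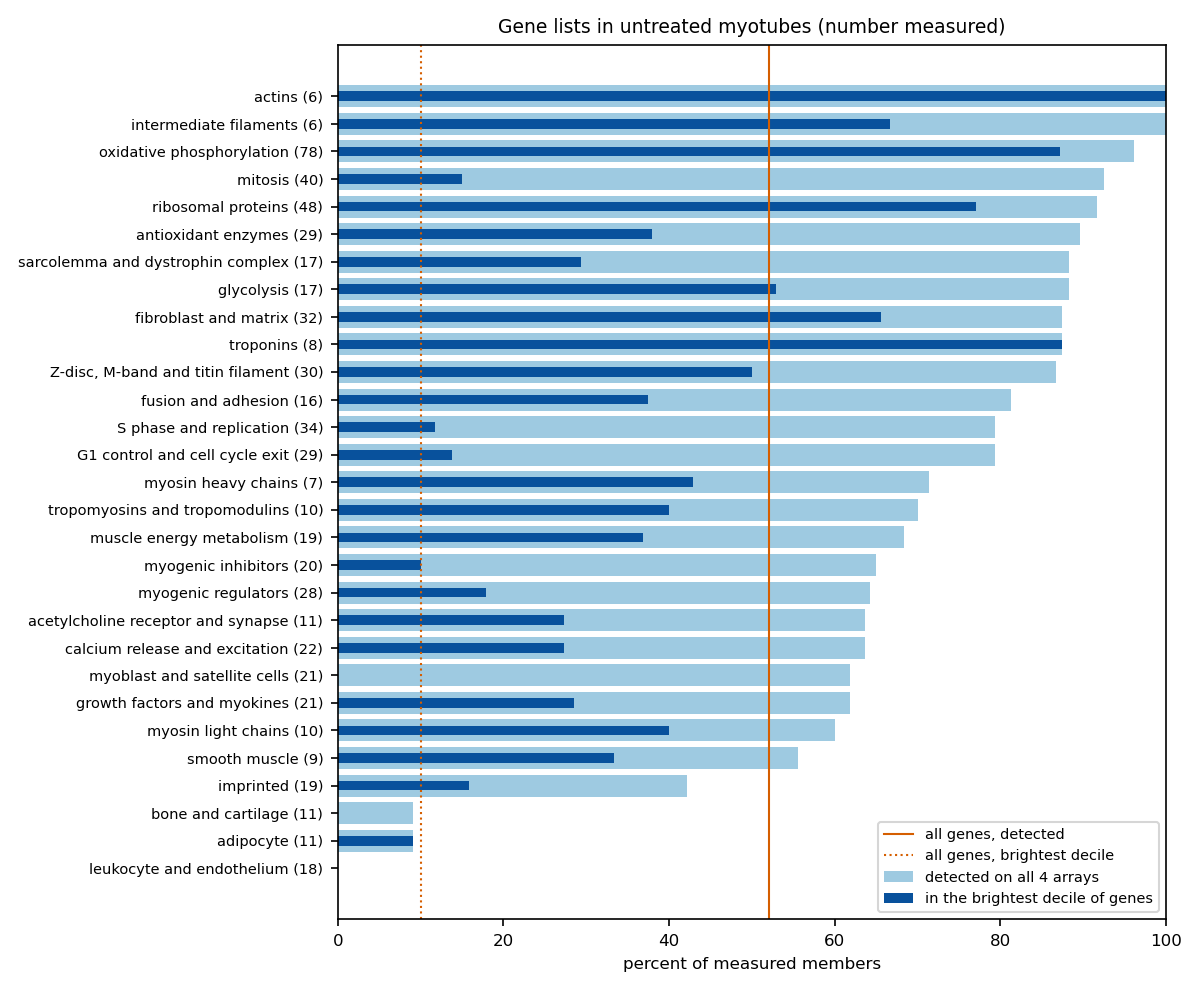
Share of the measured members of each gene list (x axis, percent) that were detected on all 4 untreated arrays (wide bars) and that lay in the brightest decile (narrow bars), with the number measured in brackets. The lines show the same shares over all genes, 52.1% and 10%: all 6 actins and all 6 intermediate filament genes were detected, and 0 of 18 leukocyte and endothelial genes.

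Most oxidative phosphorylation genes were bright. Of 78 measured subunits, 75 were detected, 96.2% against 52.1% of all genes, and 68 lay in the brightest decile, 87.2% against 10%. Uqcrb, a subunit of complex III, led it with 8651, 10342, 10356 and 9936 in replicates 1 to 4. Cox6a2, the heart and muscle form of a cytochrome oxidase subunit, gave 2519, 1953, 1895 and 1974. Cox7c and the testis form Cox6b2 were above the level on no array; both probe sets of Cox7c read below it. In glycolysis 15 of 17 members were detected, 88.2% against 52.1% of all genes. The brightest decile held 9, 52.9% against 10%, led by Pgk1, Aldoa and Eno3, the muscle enolase. Aldoc, the brain aldolase, read 30.9, 79, 77 and 71.5 and was above the level on no array.

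Sarcomere genes were present in a mixture of developmental and fibre-type forms. Of 7 myosin heavy chains measured, 5 were detected, 71.4% against 52.1% of all genes. Myh3, the embryonic chain, gave 5263, 6376, 6468 and 5616 in replicates 1 to 4, 5931 ± 586 (SD, n = 4). Myh8, the neonatal chain, gave 2145, 2438, 2440.1 and 2059.9, and Myh7, the slow and cardiac beta chain, gave 2275, 1659.5, 1481 and 1396. All 3 were well above the level on every array.

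The adult fast chains were split. Myh1 (the IIx chain) gave 7299.9, 6449.7, 6364 and 5846 and Myh4 (IIb) gave 586, 1205, 1185 and 1046 in replicates 1 to 4. Myh2 (IIa) gave 31.1, 17.2, 11.3 and 42.5, and Myh6, the cardiac alpha chain, averaged 16.3 ± 12 (SD, n = 4); both were above the level on no array. The fast chains are near-identical in sequence and lie side by side in 1 gene cluster, so signal can be shared among them. Of the 3 probe sets of Myh1, 2 were detected, with means of 6490 and 5545, and the third averaged 7.12. The brightest of them carries the suffix for probes that match other transcripts. Myh4 was lowest in replicate 1.

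The list of myosin light chains, which also holds the kinase Mylk2, showed 6 of 10 detected. That share, 60%, is near the 52.1% of all genes. Mylpf, the fast regulatory chain, gave 7056, 11441, 12189.7 and 10721 in replicates 1 to 4, Myl4, the embryonic and atrial chain, gave 8239, 10992, 11440.0 and 10167, and Myl1, the fast essential chain, gave 8588, 9751, 10216 and 8345. All 3 were among the 30 brightest genes; Mylpf and Myl4 were lowest in replicate 1 and Myl1 in replicate 4. Myl4 has a second probe set that averaged 163 and was above the level on 3 arrays. Myl2, the slow and ventricular regulatory chain, was detected at 691 ± 220.3 (SD, n = 4). The slow and ventricular essential chain Myl3 read 118 ± 18.3 (SD, n = 4) and was above the level on no array, as were Myl7 (atrial), Myl6b and the kinase Mylk2. Myl9 and Myl6, of smooth and non-muscle myosin, were detected.

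All 6 actins were detected and in the brightest decile, against 52.1% and 10% of all genes. Beside Acta1, the cardiac form Actc1, which embryonic skeletal muscle makes before Acta1, gave 7615, 8709, 8719 and 7963 in replicates 1 to 4. The smooth muscle form Acta2 gave 7379, 10202, 10458 and 8498, and the cytoplasmic form Actb gave 6082, 11309, 11114 and 9341. The other cytoplasmic form, Actg1, gave 7269, 9919.7, 10384 and 9170.1. Each was lowest in replicate 1. The coding sequences of the actins are nearly identical, and for Acta2 the 2 probe sets disagreed: the bright one, with a mean of 9134, carries the suffix for shared sequence, and the other, at 95.1, was above the level on no array. Without such probe sets Acta2 was not detected. The only probe set of Actg1 carries the suffix as well.

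Troponins were present as fast, slow and cardiac forms together. Of 8 measured, 7 were detected, 87.5% against 52.1% of all genes, all 7 in the brightest decile and 6 among the 100 brightest. The fast set comprised Tnnc2 at 8838 ± 630.2 (SD, n = 4), Tnni2 at 7745 ± 435 (SD, n = 4) and Tnnt3 at 7168 ± 929 (SD, n = 4). The slow set comprised Tnnc1, Tnni1 at 8773 ± 1436 (SD, n = 4) and Tnnt1 at 4685 ± 402 (SD, n = 4). The cardiac troponin T Tnnt2, also made in embryonic skeletal muscle, was detected at 8533 ± 1044 (SD, n = 4) on both its probe sets. The cardiac troponin I Tnni3 gave 57.3, 50.2, 54.8 and 45.1 in replicates 1 to 4 and was above the level on no array. One of the 3 probe sets of Tnni2 averaged 24.2, below the level, while the other two were detected.

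Tropomyosins Tpm1, Tpm2, Tpm3 and Tpm4 were all detected and in the brightest decile, with Tpm1 at 6845 ± 1517 (SD, n = 4) and Tpm2 at 6161 ± 408 (SD, n = 4). Of the proteins that cap or nucleate thin filaments, Lmod2, Tmod1 and Tmod3 were detected, and Lmod1, Tmod4 and Tmod2 were not. Tmod4, the tropomodulin of adult skeletal muscle, gave 60.5, 55, 49.9 and 66.2 in replicates 1 to 4, and Tmod1, the form of heart and red cells that muscle also makes, gave 769, 421, 550.3 and 454. Tmod1 was above the level on every array and Tmod4 on none.

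**Figure D3:**
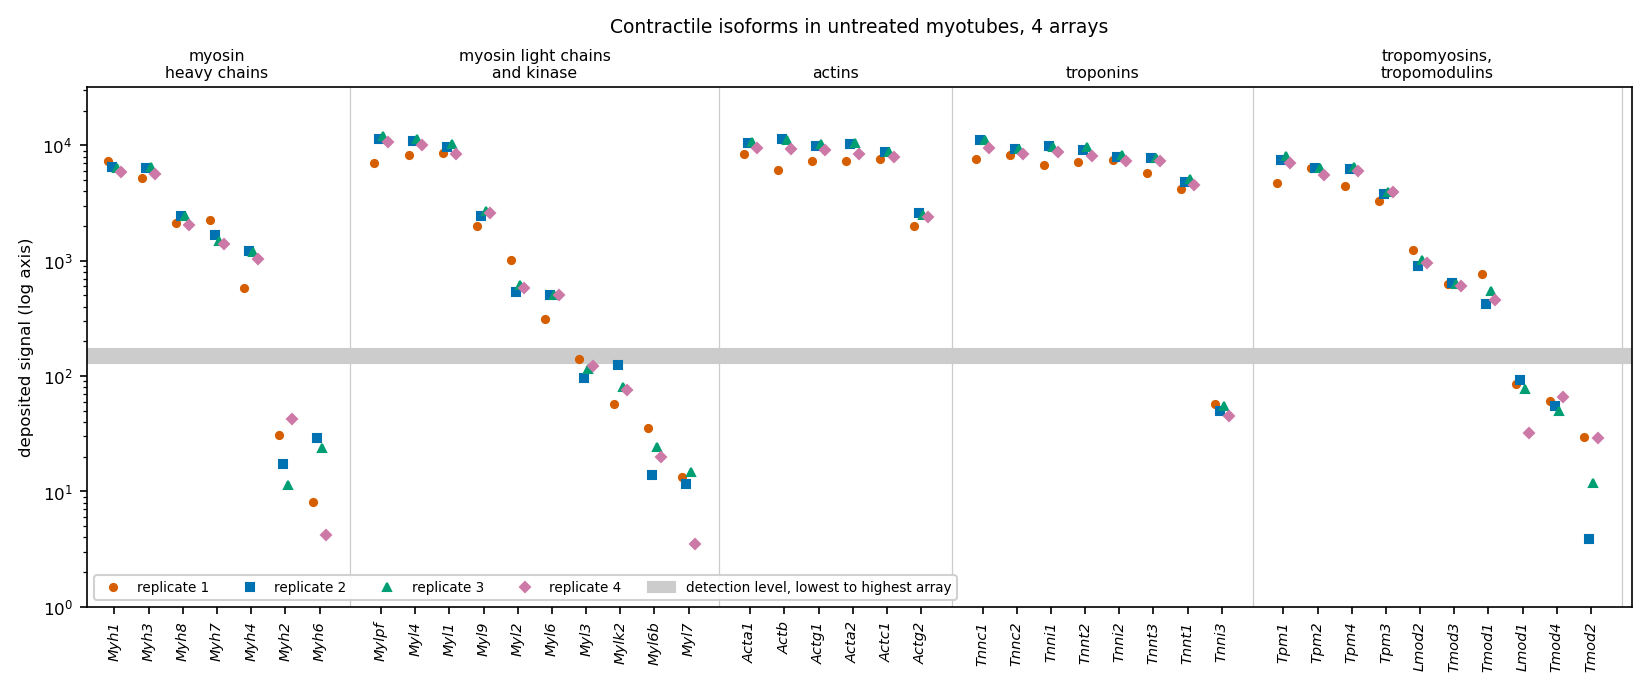
Deposited signal (y axis, log axis) of every measured sarcomere gene of 5 families in the 4 untreated arrays, 1 point per array, with a band for the lowest to highest detection level. All 6 actins and 7 of 8 troponins lie above the band, while Myh2, Myh6, Tnni3 and Tmod4 lie below it.

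Of 30 Z-disc, M-band and titin-filament genes measured, 26 were detected, 86.7% against 52.1% of all genes. In the brightest decile were 15, 50% against 10%. Mybph, a myosin-binding protein, gave 6488, 8131, 8334 and 7115 in replicates 1 to 4, Actn3, the alpha-actinin of fast fibres, gave 5384, 6384, 6414 and 5799, and the giant elastic protein titin, Ttn, gave 5143, 3939, 3699 and 3335. Titin was highest in replicate 1. Ankrd1, a titin-binding stress protein known from heart and embryonic muscle, averaged 5240.5 ± 274 (SD, n = 4). The 4 members above the level on no array were Mybpc3 (cardiac myosin-binding protein C), Myoz3, Fhl3 and Nebl (the cardiac relative of nebulin). All 6 intermediate filament genes were detected, 100% against 52.1% of all genes. Desmin, Des, the filament of muscle, averaged 6093 ± 689.8 (SD, n = 4) on 1 of 2 probe sets. The other probe set of Des averaged 117 and was above the level on no array. Nestin, Nes, a filament of precursors and regenerating fibres, averaged 3726 ± 265 (SD, n = 4). The rest were vimentin, the lamins Lmna and Lmnb1, and Sync. For Lmna, 2 of 4 probe sets were above the level on no array.

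The promoter windows of 3 of the 4 marker genes are shown for the letters that myogenic factors are known to bind. Each window runs from 250 bases before to 50 after the gene's start, read 5′ to 3′ on the gene's strand, from RefSeq on GRCm38.p6. The windows are chr1:134289754-134290053 (plus strand) for Myog, chr8:123894726-123895025 (minus strand) for Acta1 and chr14:31208062-31208361 (plus strand) for Tnnc1. Capitals mark, on the printed strand, the E-box letters CANNTG, which myogenin and MyoD are known to bind, and the TATA box letters TATANAA.

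Myog: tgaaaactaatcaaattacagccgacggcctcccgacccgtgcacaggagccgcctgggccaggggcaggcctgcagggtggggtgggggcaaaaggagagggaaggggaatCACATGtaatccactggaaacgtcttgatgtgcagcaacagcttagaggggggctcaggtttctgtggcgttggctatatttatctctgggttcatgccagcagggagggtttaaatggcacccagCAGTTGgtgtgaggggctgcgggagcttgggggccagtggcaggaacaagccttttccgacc
Acta1: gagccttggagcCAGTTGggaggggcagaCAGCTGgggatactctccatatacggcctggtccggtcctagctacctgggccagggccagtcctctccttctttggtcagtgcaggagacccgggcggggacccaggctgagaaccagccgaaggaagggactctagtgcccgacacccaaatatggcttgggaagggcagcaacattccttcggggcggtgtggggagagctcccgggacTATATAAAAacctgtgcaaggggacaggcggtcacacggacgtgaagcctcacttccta
Tnnc1: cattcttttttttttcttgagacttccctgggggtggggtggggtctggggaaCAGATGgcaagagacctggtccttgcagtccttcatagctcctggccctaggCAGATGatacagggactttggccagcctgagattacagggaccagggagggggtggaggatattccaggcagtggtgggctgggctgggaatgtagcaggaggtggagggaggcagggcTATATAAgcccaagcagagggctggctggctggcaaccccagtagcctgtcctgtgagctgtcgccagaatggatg

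The Myog window held 2 E-box matches, with first bases 138 and 12 before the start. The Acta1 window held E-box matches at 238 and 221 bases before the start, and 2 overlapping TATA matches at 9 and 7. The Tnnc1 window held E-box matches at 197 and 145 and a TATA match at 26. The lists of myosins, actins, troponins, tropomyosins and Z-disc genes held 57 detected genes, among them the smooth muscle and cytoplasmic members such as Acta2, Actb and Myl9. Of these, 45 had a window in the table, 56 windows in all. An E-box on either strand was in 82.1% of these windows and in 72.3% of all 32851 windows of 27025 genes, so the motif is common everywhere. The form CAGCTG was in 32.1% of the 56 windows and 16.3% of all. The TATA letters, on either strand, were in 19.6% and 11.3%. These are matches of letters, with no measurement of binding in these arrays.

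Energy enzymes of muscle were detected in 13 of 19 cases, 68.4% against 52.1% of all genes, with 7 in the brightest decile. Myoglobin, Mb, which stores oxygen, gave 6417, 6272, 6505 and 6028 in replicates 1 to 4 on 1 of its 2 probe sets; the other averaged 20.8, above the level on no array. Pygm, the glycogen phosphorylase that is defective in McArdle disease, was detected at 1295 ± 464 (SD, n = 4), and the muscle phosphofructokinase Pfkm at 3063 ± 359.5 (SD, n = 4). The brain creatine kinase Ckb, a form of immature muscle, was detected at 2739 ± 405 (SD, n = 4). Among the members not detected, Ckmt2 (the sarcomeric mitochondrial creatine kinase) gave 95.7, 36.7, 52.2 and 33.1 and Slc2a4 (the insulin-regulated glucose transporter GLUT4) gave 125, 76.8, 115 and 79.9. Both were above the level on no array, as were Art3, Ckmt1 and Phkg1.

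Of 22 calcium release and excitation genes 14 were detected, 63.6%, a share near the 52.1% of all genes, and 6 lay in the brightest decile. Atp2a1, the calcium pump of fast fibres, gave 4555, 4267, 4299 and 3608 in replicates 1 to 4. Atp2a2, the pump of slow and cardiac muscle, gave 5125, 5729.7, 5602 and 5332. The store proteins Casq2, of slow and cardiac muscle, and Casq1, of fast muscle, averaged 5084 ± 364 (SD, n = 4) and 2052 ± 128 (SD, n = 4). The release channel Ryr1 was detected at 1442 ± 219.6 (SD, n = 4). Above the level on no array were Ryr2 (the cardiac channel), the pump inhibitors Pln and Sln, the potassium channels Kcnj2 and Kcnj11, and Clcn1, the chloride channel of mature fibres, at 40.6, 10.2, 20.8 and 12.4.

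Transcripts of the fetal gamma subunit of the acetylcholine receptor were detected, and those of the adult epsilon subunit were not. Adult receptors replace the gamma with the epsilon subunit once muscle is innervated. Chrng, the gamma subunit, gave 2456, 3515, 3809 and 3241 in replicates 1 to 4, and Chrne, the epsilon subunit, gave 65.7, 41.6, 23.3 and 35.2. The gamma subunit was above the level on all 4 arrays and the epsilon subunit on none; 1 of 3 probe sets of Chrng, at 29.4, was below it. The shared subunits Chrna1, at 6932 ± 988 (SD, n = 4), Chrnb1 and Chrnd were detected, with the synaptic organisers Rapsn, Musk and Lrp4. Ache, the enzyme that degrades acetylcholine, and Colq, which anchors it, were above the level on no array, and Agrn on 3. Musk and Lrp4 were close to the level: with the second highest reference gene as level they were above it on 1 and 2 arrays.

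At the sarcolemma, 15 of 17 members were detected, 88.2% against 52.1% of all genes. Among them were the laminin receptor integrins Itga7 and Itgb1, dystroglycan Dag1, sarcoglycan Sgca, caveolin Cav3 and utrophin Utrn. Dystrophin itself, Dmd, gave 84, 86.7, 77.8 and 72 in replicates 1 to 4 and none of its 3 probe sets was above the level on any array. Where in this very long transcript those probes lie is not known here, so they do not speak for every dystrophin form. Sgcd was the other member not detected. Of 16 fusion and adhesion genes 13 were detected, 81.25% against 52.1% of all genes. Mymk (myomaker), the membrane protein needed for fusion, gave 5402, 6435, 6302 and 5907, 6011 ± 464 (SD, n = 4), and was lowest in replicate 1. The adhesion proteins Cdh15 (M-cadherin) and Ncam1 were detected, and Itga4 and Kirrel were above the level on no array.

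Myogenic regulators were detected in 18 of 28 cases, 64.3%, near the 52.1% of all genes, and 5 were in the brightest decile. Beside Myog, Myod1, the regulator that both myoblasts and myotubes make, gave 2223, 1983, 1918 and 1964 in replicates 1 to 4. Myf5, a factor of myoblasts, gave 241, 349, 347 and 349 and was detected. Myf6 (MRF4), the factor of mature fibres, gave 83.2, 137, 155 and 156, above the level on 2 of 4 arrays. Myog and Myod1 kept their calls in every alternative run, while Myf5 was above the level on 1 array when the second highest reference gene set it.

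MEF2 factors, the partners of the MyoD family, were led by Mef2c, at 3958, 4079, 4484 and 4713, with all 5 probe sets detected. Mef2a and Mef2d were detected, and Mef2b read 26.2 ± 13.5 (SD, n = 4) and was above the level on no array. The E proteins Tcf3, Tcf4 and Tcf12, which pair with MyoD factors, were detected, with Srf, Carm1, Smarcd3, Smyd1 and Mrtfa. Of the sine oculis factors and their EYA partners, Six4 and Eya3 were detected, Six5 was above the level on 1 array, and Eya1, Eya2 and Eya4 on none. Also above it on no array were Tead1, Hdac9 and Myocd, and Pitx3 was above it on 1.

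**Figure D4:**
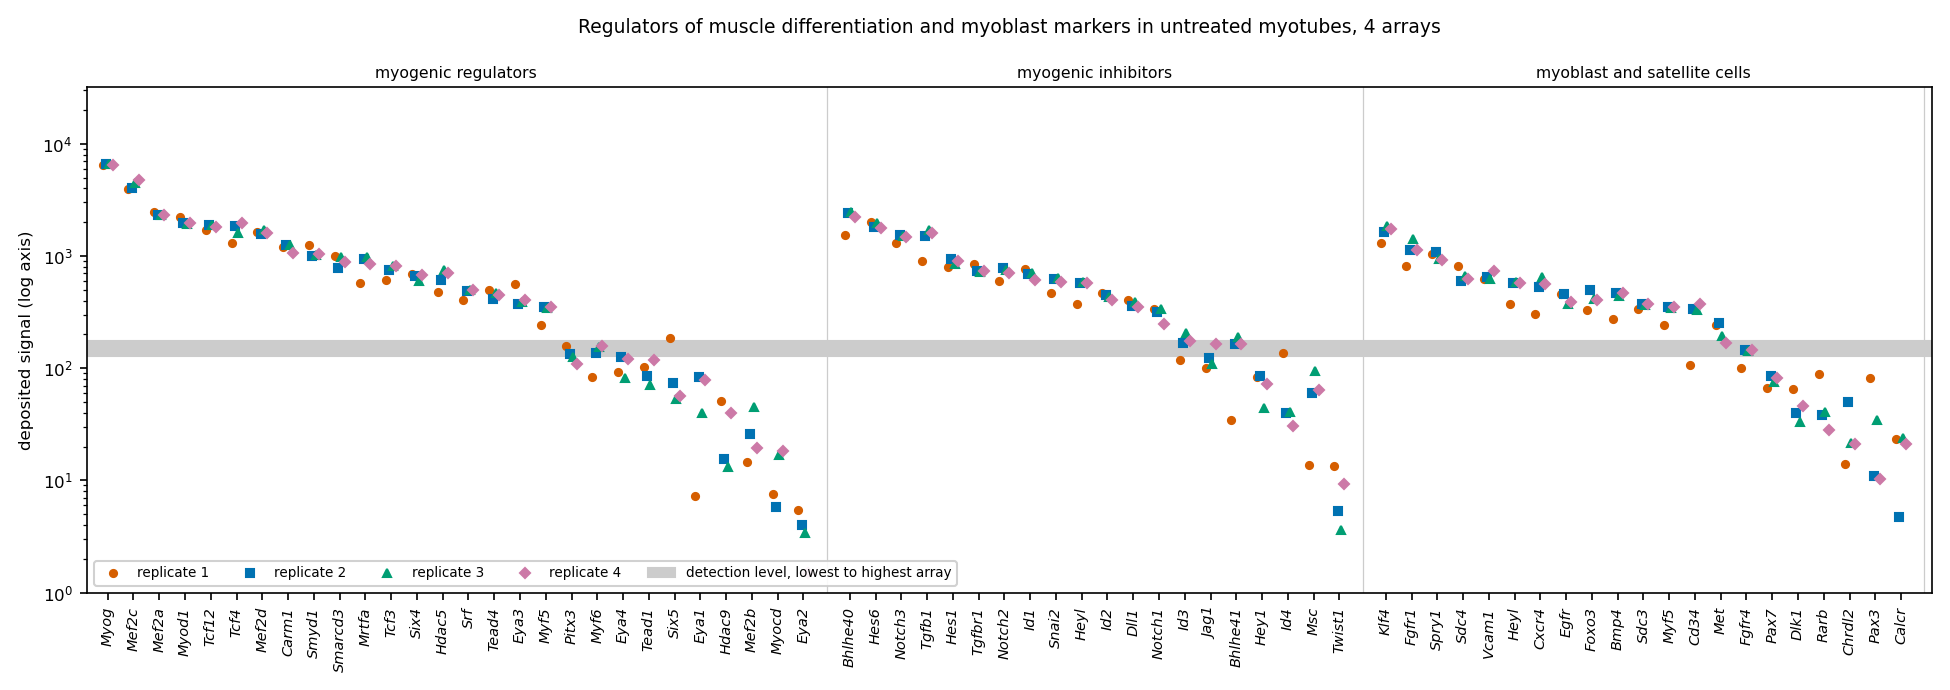
Deposited signal (y axis, log axis) of the measured myogenic regulators, myogenic inhibitors, and myoblast and satellite cell genes in the 4 untreated arrays, 1 point per array, with a band for the lowest to highest detection level. The 4 points of Myog lie between 6446 and 6633, those of Myf6 run from below the band into it, and those of Pax7 lie below it.

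Inhibitors of myogenesis were detected in 13 of 20 cases, 65%, near the 52.1% of all genes. Id1, which sequesters E proteins, was detected at 690.4 ± 65.4 (SD, n = 4), and the Notch receptors Notch2 and Notch3 and the Notch target Hes1 were detected as well. The group was led by Bhlhe40, at 2157 ± 432 (SD, n = 4), and Hes6, at 1898 ± 101 (SD, n = 4); Hes6 is known to promote differentiation rather than block it. Hey1, Id4, Msc and Twist1 were above the level on no array. For Heyl and Tgfbr1 only 1 of 3 probe sets was detected.

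Markers of myoblasts and satellite cells were detected at about the share of all genes, and the PAX factors were not detected. Of 21 measured, 13 were detected, and 0 lay in the brightest decile. That share detected, 61.9%, is near the 52.1% of all genes. Pax7, which marks satellite cells, gave 67, 84.9, 74.9 and 82.5 in replicates 1 to 4, and Pax3 averaged 34.4 ± 33.5 (SD, n = 4) on its brighter probe set. Both stayed below the level on every array. Calcr, a receptor of quiescent satellite cells, and Dlk1, Rarb and Chrdl2 did too. Vcam1, at 656 ± 51.2 (SD, n = 4), Cxcr4, at 513 ± 149 (SD, n = 4), Spry1, Sdc4, Fgfr1, Klf4 and Heyl were detected. In bulk RNA, fewer cells of a type and less RNA per cell cannot be told apart, for these markers and for the mitosis and S-phase genes below.

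The cell cycle was readable on every array. Of 40 mitosis genes, 37 were detected, 92.5% against 52.1% of all genes, and none was below the level on all arrays. The 3 exceptions, named after their values were seen, were Kif18a, Ndc80 and Cdc25c, above the level on 2, 1 and 2 arrays. Cdk1, the kinase that starts mitosis, gave 1426, 1833, 2025 and 2004 in replicates 1 to 4, and Cdc20, the activator of the anaphase ubiquitin ligase, gave 1585, 1903, 1883 and 1946. Pttg1 (securin), at 3339.8 ± 606 (SD, n = 4), Cks1b, Cks2, Anln and Kif22 were detected. Cdk1 and Cdc20 were lowest in replicate 1. The topoisomerase of dividing cells, Top2a, was detected at 1705 ± 58.6 (SD, n = 4) on 1 of 2 probe sets, the other averaging 3.58.

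S-phase genes were detected in 27 of 34 cases, 79.4% against 52.1% of all genes. The brightest decile held 4 of them, 11.8%, near the 10% of all genes. Pcna, the clamp of the replication fork, gave 3711, 4473, 4678 and 4552 in replicates 1 to 4, and Rrm2, the S-phase subunit of ribonucleotide reductase, gave 3877, 3392, 3425 and 3493. The replicative helicase genes Mcm2, Mcm4, Mcm6 and Mcm7 were detected. Tyms, thymidylate synthase, and Orc1, of the origin recognition complex, were above the level on no array; all 3 probe sets of Tyms read below it. A further 5 were above it on some arrays: Gins1 and Pole on 3, Ccne1 and Chaf1b on 2, and Cdc6 on 1, also named after their values were seen. The summed signal of the S-phase list was 28276 in replicate 1 and 24085 to 25826 in the other 3, and that of the mitosis list was 41066 in replicate 1 and 41239 to 44919 in the others.

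Genes of cell cycle exit stood beside them. Cdkn1a, the inhibitor p21 that myogenin-positive cells switch on as they leave the cycle, gave 4416, 6757, 6560.1 and 5866 in replicates 1 to 4, 5899.8 ± 1061 (SD, n = 4). Ccnd3, the cyclin that differentiated muscle keeps, gave 4545, 4401, 4443 and 4268, and Rb1, the retinoblastoma protein that holds the exit, gave 1766, 1523, 1413 and 1479.5. Of the 29 genes of G1 control and exit, 23 were detected, 79.3% against 52.1% of all genes, including Ccnd1 and Cdk4. Cdkn2a (p16 and ARF), at 17.5, 24.2, 29.5 and 31.5, Cdkn2b, Cdkn1c, Cdk6 and Gas6 were above the level on no array. Cdkn1a in the brightest decile and detected mitosis genes were thus read in the same RNA.

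**Figure D5:**
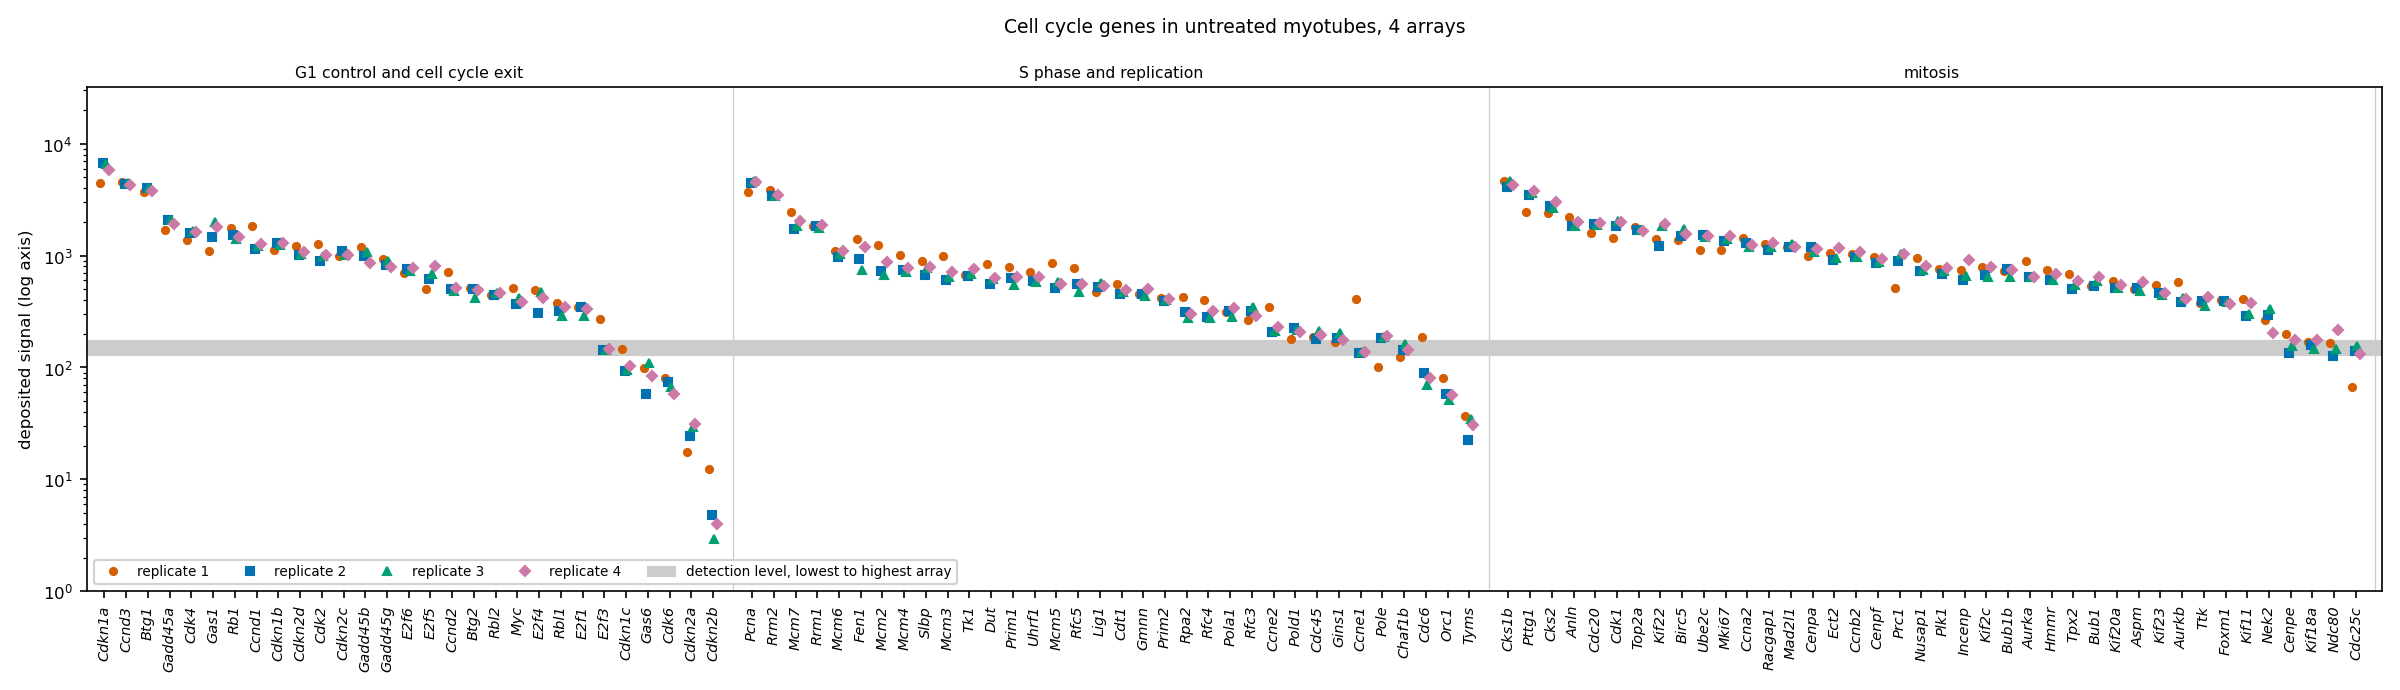
Deposited signal (y axis, log axis) of every measured gene of G1 control and cell cycle exit, S phase, and mitosis in the 4 untreated arrays, 1 point per array, with a band for the lowest to highest detection level. Cdkn1a leads the first group between 4416 and 6757, Cdkn2a and Cdkn2b lie below the band, and 37 of 40 mitosis genes were detected.

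Promoter windows of 2 detected mitosis genes are printed for the letters known from genes of the G2 and M phases, the CCAAT box and the element TTTGAA (the cell cycle genes homology region, CHR), both in capitals on the printed strand. They are chr4:118437294-118437593 (minus strand) for Cdc20 and chr9:70421505-70421804 (minus strand) for Ccnb2, a mitotic cyclin, again from RefSeq on GRCm38.p6 and read on the gene's strand.

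Cdc20: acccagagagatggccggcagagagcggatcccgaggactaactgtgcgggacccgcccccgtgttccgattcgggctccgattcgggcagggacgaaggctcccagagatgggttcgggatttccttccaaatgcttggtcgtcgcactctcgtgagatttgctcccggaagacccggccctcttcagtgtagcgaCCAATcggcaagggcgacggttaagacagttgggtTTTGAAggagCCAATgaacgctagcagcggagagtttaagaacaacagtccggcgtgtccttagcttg
Ccnb2: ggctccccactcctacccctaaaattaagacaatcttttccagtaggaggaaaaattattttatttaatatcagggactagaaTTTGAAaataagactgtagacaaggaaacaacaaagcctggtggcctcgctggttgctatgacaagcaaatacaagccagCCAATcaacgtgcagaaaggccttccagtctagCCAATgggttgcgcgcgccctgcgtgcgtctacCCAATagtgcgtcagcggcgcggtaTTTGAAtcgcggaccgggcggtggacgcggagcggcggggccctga

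The Cdc20 window held CCAAT at 53 and 8 bases before the start and TTTGAA at 18. The Ccnb2 window held CCAAT at 87, 54 and 21 bases before the start, and TTTGAA at 167 before it and at 5 after it. Ccnb2, chosen with its values known, was detected at 1009 ± 47.3 (SD, n = 4). Over the 37 detected mitosis genes, 31 had a window, 33 in all. On either strand, CCAAT was in 81.8% of these windows and in 37.4% of all windows, and TTTGAA was in 75.8% and 17.9%. The 56 windows of the myosin, actin, troponin, tropomyosin and Z-disc lists held CCAAT in 37.5% and TTTGAA in 8.93%, and the TATA letters were in 0 of the 33 mitosis windows. As before, a match shows the letters alone.

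Most genes of the matrix and fibroblast list were bright. Of 32 measured, 28 were detected, 87.5% against 52.1% of all genes, and 21 lay in the brightest decile, 65.6% against 10%. Fn1 (fibronectin) gave 6843, 10361, 10534 and 9566 in replicates 1 to 4, Sparc, a matrix glycoprotein, gave 6802, 10403, 10223 and 9262, and Col3a1 gave 5793, 9394, 9757 and 8766. Col1a1 gave 1734, 4924, 5179 and 4309, the lowest in replicate 1. The summed signal of the list was 98022 in replicate 1 and 124675 to 134732 in the others. The 4 members above the level on no array were the fibroblast surface and matrix markers Pdgfra, Thy1, Fap and Lum. C2C12 myoblasts are themselves known to make matrix, and whether another cell type contributed was not tested.

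Smooth muscle genes were detected in 5 of 9 cases, 55.6%, a share near that of all genes, and 1 of the 5 is Acta2, which rests on a probe set of shared sequence. Tagln, an actin-binding protein also made by embryonic skeletal muscle, gave 3452, 5847, 5933 and 5465 in replicates 1 to 4. Myh11, the smooth muscle myosin, averaged 19.7 ± 11.4 (SD, n = 4) and was above the level on no array, as were Myocd and Lmod1; Cnn1 was above it on 2. Mylk, detected at 257 ± 36.4 (SD, n = 4) on 1 of 3 probe sets, was above the level on no array when the second highest reference gene set it. Apart from Acta2, Actg2 and Tagln, no member was in the brightest decile.

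Most markers of other lineages were below the level, with exceptions among bone and adipocyte genes, while 52.1% of all genes were detected. Of 18 leukocyte and endothelial genes 0 were detected and 16 were above the level on no array, including Cd3e, Itgam, Pecam1 and Vwf; Csf1r and Cd14 were above it on 2 arrays. The summed signal of these 18 genes was 763 to 954 over the 4 arrays. Of 11 bone and cartilage genes 1 was detected, Sox9, at 271 ± 25.4 (SD, n = 4); the other 10, with Sp7, Col2a1 and Acan among them, were above the level on no array. Sox9 lost the call with the second highest reference gene as level and with the median of its probe sets. Of 11 adipocyte genes 1 was detected, the desaturase Scd1, at 5691 ± 791 (SD, n = 4), which many tissues make. Adipoq, Lep, Cidec, Pparg and Fabp4 were above the level on no array, and Cebpa and Lpl were above it on 3 arrays. Without replicate 1, whose level was the highest, Cebpa and Lpl were above it on all 3 remaining arrays, and 3 adipocyte genes were then detected.

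Members of the growth factor and myokine list were detected in 13 of 21 cases, 61.9%, near the 52.1% of all genes. Its brightest members were Igfbp5 and Igfbp2, binding proteins of the IGF system, whose growth factors drive myoblast differentiation. Igf2 gave 2208, 2283, 2324 and 2299 in replicates 1 to 4 on 1 of 2 probe sets; the other, at 93.5, was above the level on no array. The binding proteins Igfbp5, at 2542, 3817, 3668 and 3343, Igfbp2, at 1232, 4269.9, 4076 and 3588, Igfbp4 and Igfbp6 were in the brightest decile, and Igfbp3 was above the level on no array. Igfbp2 was far lower in replicate 1 than in the rest. Fst (follistatin), which binds myostatin, averaged 2486 ± 437 (SD, n = 4). Il6, Il15 and Fgf2 were above the level on no array.

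Imprinted genes were detected in 8 of 19 cases, 42.1%, a share near that of all genes. Beside Igf2 and Igf2r these were Gnas, Peg3, Mest, Impact, Sgce and Ndn. Gnas was detected on 1 of 4 probe sets and Ndn on 2 of 8. Dlk1, Peg10, Plagl1, Nnat, Snrpn, Phlda2, Zim1 and Cdkn1c were above the level on no array.

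Antioxidant enzymes, which the study's peroxide arm concerns, were widely present without peroxide. Of 29 measured, 26 were detected, 89.7% against 52.1% of all genes, and 11 lay in the brightest decile, 37.9% against 10%. Fth1, the iron-storing ferritin heavy chain, gave 7314, 9437, 9519 and 8467 in replicates 1 to 4, thioredoxin Txn1 gave 6510.0, 6946, 7071 and 6769.9, and the lipid peroxide reductase Gpx4 gave 3512, 5003, 5145 and 4744. Prdx2 averaged 4541 ± 46.1 (SD, n = 4), Prdx4 2046 ± 357 (SD, n = 4), the superoxide dismutase Sod1 2372 ± 400.2 (SD, n = 4), and the metallothioneins Mt1 and Mt2 2693 ± 438 (SD, n = 4) and 2515 ± 673 (SD, n = 4). Gpx7 was the 1 member above the level on no array. For Txn1, Prdx2 and Mt1, 1 of 2 probe sets was detected.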

How the data were processed

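The authors deposited linear signal intensity values of 22690 probe sets from Affymetrix Microarray Suite 5.0, per the labels and the submitters' processing notes. Each untreated array had a 2% trimmed mean of 500.1 to 500.2, so the deposited values carry a global scaling, which was kept. Detection calls were not used here. The sample labels list both a red and a green dye, but staining with 1 streptavidin-bound marker is described, so each array was read as 1 channel. With arrays there is no read depth, and the 4 arrays limit the precision.

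Values were floored at 1 and averaged as log2. Control probe sets, 64 in all, were left out. Symbols came from the platform annotation: 20393 probe sets had 1 symbol, 691 several and 1606 none, and only the first were named. Each of the 4958 genes with several probe sets is given by the one of highest mean log2 signal. Other probe sets of a detected gene can lie below the level, and not every such case is named. Detection used the reference genes described above, 93 measured of 105 listed. No test between groups was run, because 1 group is described, and single arrays were screened gene by gene with Dixon's ratio on log2 signals; mean ± SD is over 4 arrays. The members, the gene lists and the level were chosen with earlier results of these data known. Genes named are all members of the sarcomere and regulator families, the 30 brightest genes, the 8 brightest and up to 6 not detected on any array of each other list, the 10 of largest SD, and the markers. Alternatives were other levels, other choices of probe set, quantile normalization and leaving out each array. Python 3.11.15, pandas 2.3.3 and numpy 2.4.6 were used.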

Additional observations from a re-analysis of the deposited data

Results flagged for a closer look

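Of the 273 genes given with a value or a call, 37 had 1 array far from the other 3: the gap between that array and its nearest neighbour, divided by the range of the 4 log2 signals, was above Dixon's 95% critical value for 4 samples. Chance flags about 1 in 20 independent groups of 4. The share here cannot be set against that, because genes on the same arrays are not independent and 10 of the genes were named for their large SD over these arrays. The odd array was replicate 1 in 33 of the 37, low in 24 and high in 9. The ratio of gap to range is in brackets after each gene.

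Replicate 1 was low for Chrna1 (0.847), Tagln (0.848), Cdh15 (0.884), Casq1 (0.904), Heyl (0.943), Srf (0.844), Myl6 (0.981) and Myf5 (0.981). It was low for Col1a1 (0.832), Igfbp2 (0.86), Igfbp6 (0.975), Igfbp4 (0.922), Olfml3 (0.855) and Pdgfra (0.837). It was also low for Pttg1 (0.848), Snrnp27 (0.938), Mt2 (0.912), Prdx4 (0.882), Cdc20 (0.84), Mest (0.949), Rflnb (0.964), Cebpa (0.862), Pole (0.938) and Aldoc (0.894). It was high for Mef2a (0.941), Cox6a2 (0.858), Tgfbr1 (0.881), Musk (0.89), Fosl1 (0.881), Yipf7 (0.911), Ccne1 (0.971), Vwf (0.881) and Nebl (0.872). In the remaining cases the odd array was another: replicate 4 was low for Tpm2 (0.934), Lmod1 (0.841) and Lum (0.88), and replicate 2 was low for Calcr (0.928).

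Genes above the level on no array, such as Vwf, Nebl, Lum, Calcr, Aldoc, Pdgfra and Lmod1, are dim, and their ratios describe signals below the detection level. What set replicate 1 apart was not tested.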

How the results depend on the processing

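Of 330 counts of detected list members under the alternatives, 322 stayed within 1.5 times the reported count. The 8 others concern 3 lists of other lineages. Adipocyte genes went from 1 to 3 with the 90th percentile of the reference genes as level, with the 40th percentile of all probe sets, with 3 of 4 arrays required, and without replicate 1; leaving out each array gave 1 to 3. Leukocyte and endothelial genes went from 0 to 2 with the 90th percentile and to 1 with the 40th percentile of all probe sets. Bone and cartilage genes went from 1 to 0 with the second highest reference gene as level and with the median over a gene's probe sets. Genes detected in all were 6456 as reported, 7286 with the 90th percentile, 7225 with the 40th percentile of all probe sets, 6839 with 3 of 4 arrays, 4695 with the second highest reference gene, 5862 with the median over probe sets, 6455 after quantile normalization, and 6465 to 6747 without 1 array. Of the 342 genes that the naming rule takes, 342 kept their call under quantile normalization and without replicate 2, 3 or 4; 337 did without replicate 1 and 5 were gained. The second highest reference gene as level lost 15 calls, the median over probe sets 13, and leaving out probe sets with a suffix for shared sequence lost 7 and gained 1 of 333. By the median over probe sets Top2a, Gnas and Egfr were not detected. The cause of these changes beyond the change of level or probe set was not tested.

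No paired analysis was possible because 1 group is described and no comparison between groups was made. A probe set's brightness depends on its probes, so signals do not rank transcripts by abundance, and being below the level is not a measure of absence. Near-identical transcripts share signal.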
